A study of Saccharomyces cerevisiae with 8 samples.

Results

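The comparison follows budding yeast (Saccharomyces cerevisiae) of a strain labelled mec1 from a G1 arrest into 1 h of hydroxyurea (HU). For each mRNA feature, the level in the library taken in HU was set against the level in the library taken in G1, as a difference on the scale log2(value + 1). A feature was kept if either library listed it at 1 or above, and 6489 of the 6547 features in the deposited table met this. The study sequenced mRNA of 2 strains at 4 times, 8 libraries in all. The strain described here is WFA73 with the genotype mec1, and the other is WFA72, given as wildtype. Cells of both strains were first held in G1 with alpha factor, the mating pheromone that alpha cells secrete and a cells answer, so pheromone exposure is part of every G1 library. The HU library holds cells moved from the pheromone to medium with 200 mM HU and left there for 1 h, and the R30 and R60 libraries hold cells 30 and 60 min after the drug had been filtered off. The labels name neither the mec1 allele nor any second mutation that the strain may carry, and they do not say whether the libraries of a strain came from 1 culture. Total RNA was taken with hot phenol, libraries were made with a stranded mRNA kit, and pairs of 75 bp reads were run on a MiSeq, per the labels and the series description. There is 1 library for each strain and time, so no difference could be tested, and "rose" and "fell" below mean 2-fold or more on the log2(value + 1) scale.

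HU blocks ribonucleotide reductase (RNR), which supplies deoxynucleotides, and replication forks slow or stall when these run low. Mec1, the yeast counterpart of the checkpoint kinase ATR, senses the stalled forks and acts through the kinases Rad53 and Dun1. In wild-type cells this pathway lifts repression of the RNR genes by Rfx1 (also called Crt1), removes the RNR inhibitor Sml1 and holds back mitosis. Release from alpha factor also ends pheromone signalling and opens the G1/S programme, so the step from G1 to HU combines a drug, a change of cell cycle stage and the loss of pheromone, which cannot be told apart here.

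The deposited value of a feature is in RPM, reads scaled to a fixed total per library, averaged over all counting windows that touch it. The windows are the body of each feature and 1000 bp on either side, so a value also takes in reads of close neighbours and is not divided by length. The labels do not say whether strand was used in counting, so reads of overlapping features cannot be told apart. Levels are therefore compared between libraries and not between genes. Where a neighbour matters, a second value is given in which the windows were split between features by non-negative least squares, called the separated value. Counts of features past 2-fold in separated values are not read as counts of changed genes. The scale rests on 3935979 reads in mec1 G1 and 2757721 in mec1 HU, with a median of 258 and 180.5 reads per window. The 95% intervals given in brackets are binomial (Clopper-Pearson) intervals on the mean reads per window of a feature. That mean is taken over windows that can share reads and need not be a whole number, so the intervals are approximate. They are intervals of the log2 ratio of the levels without the added 1, so for genes of low level they centre further from 0 than the difference printed beside them. A fold printed beside a difference is likewise the plain ratio of the levels. The intervals cover counting error only, not the spread between cultures, and the reads carry no molecular identifiers.

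MEC1 itself was read in all libraries of the strain. Its level was 77.1 RPM in G1, 124 in HU, 83.9 in R30 and 76.6 in R60, against 36.2, 90.3, 35.7 and 38.7 in wild type. The mec1 libraries thus lay above the wild-type library at all 4 times. The neighbour YBR137W moved more than MEC1 from G1 to HU, and after separation MEC1 stood at 74.3 and 71.1 RPM in mec1 G1 and HU and at 5.11 RPM in wild-type G1. MEC1 mRNA was therefore not reduced in the libraries labelled mec1, and an mRNA level does not show whether the protein works. As a check of mating type only, since levels of different genes are not on one scale, STE2, the alpha factor receptor of a cells, was read at 796 RPM in mec1 G1. The 4 alpha-cell genes in the table were read there at 4.25 RPM (STE3, the receptor of alpha cells), 5.13 and 14.4 RPM (the alpha factor genes MF(ALPHA)1 and MF(ALPHA)2) and 32.5 RPM (SAG1, the alpha agglutinin).

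Across the genome, 307 features (4.73%) rose and 150 (2.31%) fell from G1 to HU in the mec1 strain. At 4-fold the numbers were 27 (0.416%) and 23 (0.354%). Counts for the gene lists below are to be read beside the 2-fold shares, and some lie near them. The median difference over all features was -0.00 and the quartiles were -0.29 and 0.31. The levels of the libraries correlated across features with a coefficient of 0.937, a description over features that share libraries. The falls were led by genes of mating, and the rises by a mixture of G2/M cyclins, a glucose transporter, cell wall genes and plasma membrane genes.

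**Figure D1:**
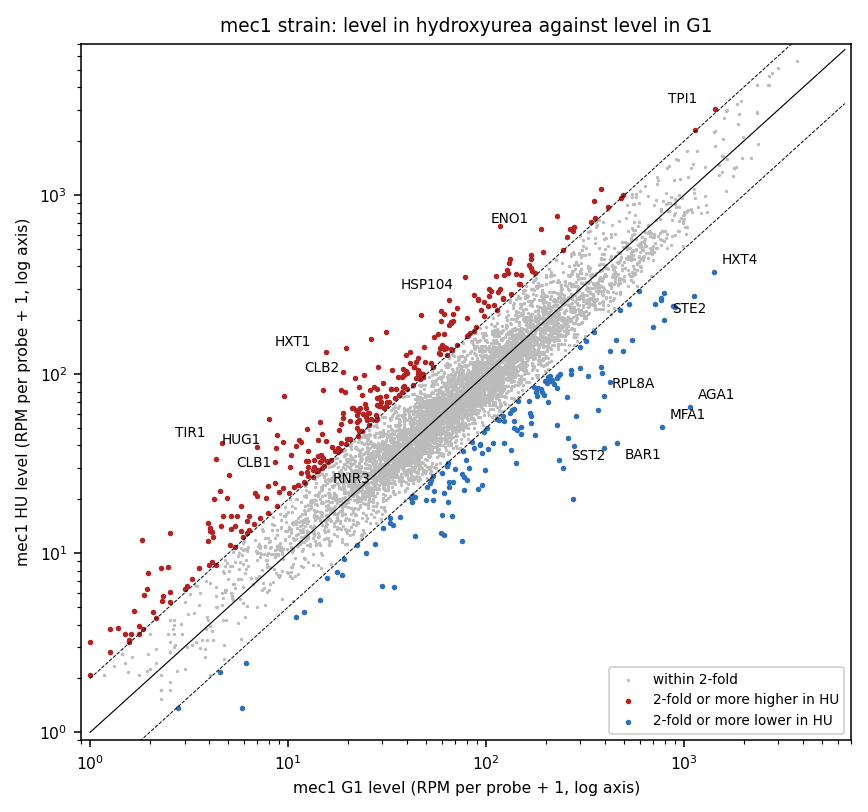
Level of each of the 6489 features in mec1 HU against mec1 G1, in RPM per window plus 1 on log axes, with dashed lines at 2-fold. The 150 features that fell include AGA1, MFA1 and BAR1 at the lower right, and the 307 that rose include TIR1, HXT1 and CLB1 at the upper left.

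The largest falls were in genes that a cells use to mate. AGA1, which anchors the a-cell agglutinin to the wall, went from 1076 to 65.0 RPM, a 16.6-fold drop and a difference of -4.03 (log2 ratio -4.27 to -3.83). MFA1, which encodes the a-factor pheromone, went from 773 to 49.6 RPM (-3.94). BAR1, a protease that destroys alpha factor, went from 456 to 40.1 RPM (-3.48). These 3 genes had the largest falls of all named features apart from HOP2, a meiosis gene that lies beside AGA2. HOP2 went from 275 to 19.0 RPM but is at 0 in both libraries after separation, so its fall cannot be told apart from that of AGA2. Of the 10 a-cell genes that passed the filter, 7 fell and 0 rose, with a median of -1.90. STE2 went from 796 to 199 RPM, MFA2, the second a-factor gene, went from 895 to 236 RPM, and AGA2, the agglutinin subunit that binds the partner cell, went from 877 to 239 RPM. In mRNA from whole cultures, fewer cells that express a gene and less of its mRNA per cell cannot be told apart. The 3 members that did not fall were AXL1 at -0.40, a protease that matures a-factor, and the prenylation and methylation enzymes RAM1 at 0.23 and STE14 at 0.16.

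Among cell adhesion and fusion genes, 15 of 22 fell and 0 rose, with a median of -1.46. FIG2, a wall adhesin of mating cells, went from 279 to 38.8 RPM (-2.81). PRM1, a membrane protein that acts in plasma membrane fusion, went from 233 to 32.3 RPM (-2.81). FIG1, which acts in calcium uptake during mating, went from 367 to 61.8 RPM (-2.55). The genes for the fusion proteins FUS1 and FUS2 stood at -1.65 and -1.87. KAR4, a transcription factor of nuclear fusion genes, went from 226 to 50.9 RPM. Members with other roles in polarity stayed within 2-fold, among them SPA2 at -0.01 and BNI1, a formin, at -0.44.

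Of the 18 signalling genes, 3 fell and 0 rose, with a median of -0.33. After separation their median was -0.91 and 8 stood 2-fold or more lower, against 6.91% of all features with separated values. SST2, which shuts off the receptor's G protein, went from 244 to 28.9 RPM (-3.04). TEC1, a transcription factor of filamentous growth, went from 90.0 to 21.9 RPM, and the kinase gene FUS3 went from 168 to 57.2 RPM. STE4, the G protein beta subunit, differed by -0.86, short of 2-fold. PGU1, a pectin-degrading enzyme gene outside the mating lists, went from 75.0 to 10.8 RPM (-2.69).

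The upstream sequences shown here are of mating genes with large falls, picked because they hold the pheromone response element, the site of the factor Ste12. The letters searched were TGAAACA on either strand, in bases 300 to 101 before the start codon in RefSeq R64, a window of 200 bases that can reach into a neighbouring gene. It was found in 278 of 5851 windows (4.75%) and in 21 of the 131 windows of features that fell (16%). Among a-cell genes 8 of 10 windows held it, and among adhesion and fusion genes 10 of 22. A match is a run of letters, not a shown binding site. The capitals mark the match, in either orientation, in the windows of AGA1 at chrXIV:703399-703598 (plus strand), PRM1 at chrXIV:110617-110816 (plus strand) and BAR1 at chrIX:322042-322241 (plus strand).
AGA1: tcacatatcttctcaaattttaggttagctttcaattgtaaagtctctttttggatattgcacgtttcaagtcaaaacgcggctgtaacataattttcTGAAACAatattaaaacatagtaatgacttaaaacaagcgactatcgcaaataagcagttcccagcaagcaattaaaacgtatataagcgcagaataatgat
PRM1: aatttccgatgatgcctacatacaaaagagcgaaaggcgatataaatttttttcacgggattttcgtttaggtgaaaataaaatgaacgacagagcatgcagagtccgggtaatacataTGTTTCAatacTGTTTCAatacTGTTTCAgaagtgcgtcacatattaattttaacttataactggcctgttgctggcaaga
BAR1: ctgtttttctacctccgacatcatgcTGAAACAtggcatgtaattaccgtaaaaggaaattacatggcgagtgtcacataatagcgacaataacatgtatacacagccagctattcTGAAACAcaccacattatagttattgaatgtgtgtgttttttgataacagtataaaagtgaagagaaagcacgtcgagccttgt
PRM1 holds 3 copies in a row, BAR1 holds 2 and AGA1 holds 1.

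**Figure D2:**
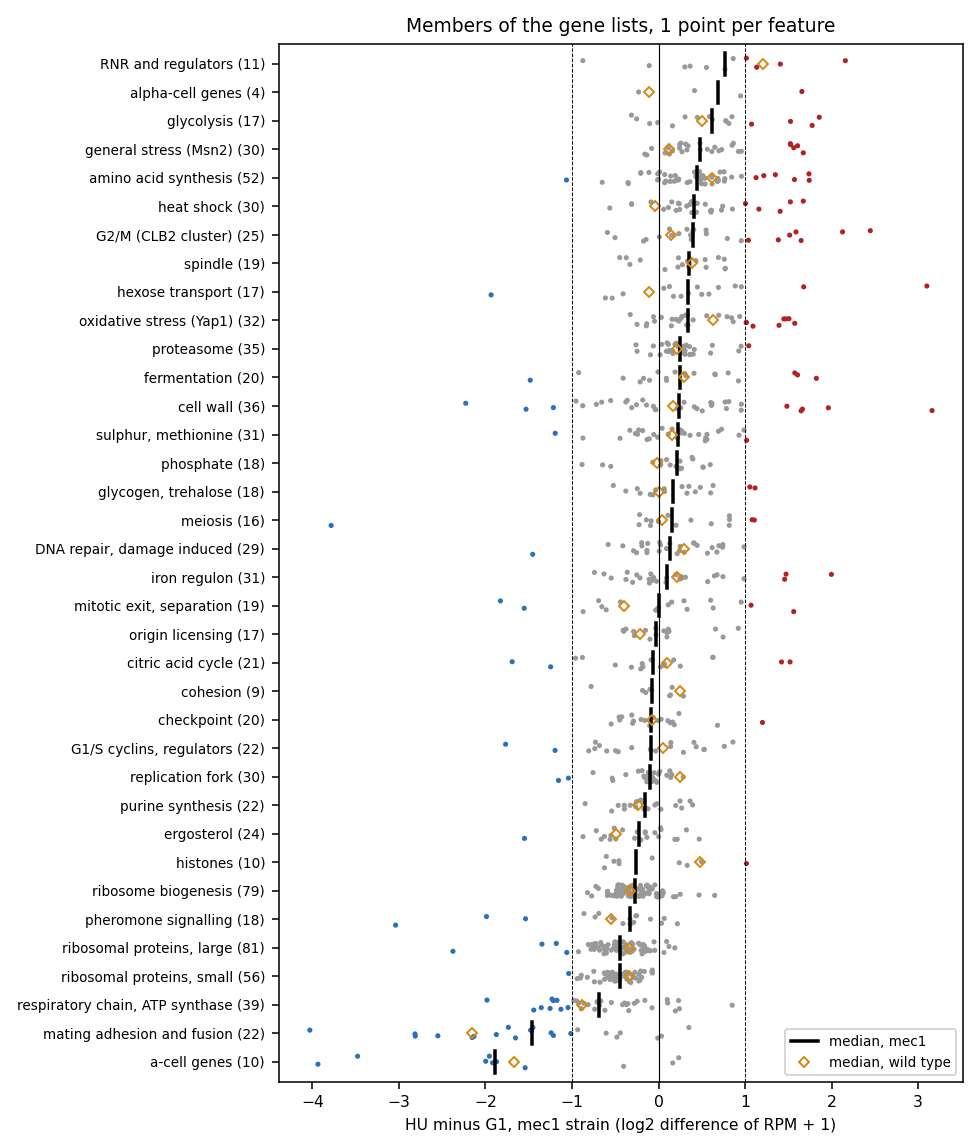
Difference between HU and G1 in the mec1 strain (log2 difference of RPM + 1) for each member of 36 gene lists, with the number of members in brackets, bars at the mec1 median and open diamonds at the wild-type median. Points at or beyond the dashed lines (2-fold) are coloured, and the a-cell and mating fusion lists at the bottom have medians of -1.90 and -1.46.

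The RNR genes and their regulators moved upward in part. Of 11 members that passed the filter, 4 rose and 0 fell, with a median of 0.77. RNR3, the minor large subunit gene that is known as a damage marker, went from 14.3 to 29.9 RPM, a difference of 1.01 (log2 ratio 0.56 to 1.58) that lies at the 2-fold line. The small subunit genes RNR2 and RNR4 differed by 0.77 (log2 ratio 0.63 to 0.92) and 0.55 (log2 ratio 0.43 to 0.68), at 182 in G1 and 310.4 in HU for RNR2 and 278 in G1 and 408 in HU for RNR4. RNR1, the main large subunit gene, stood lower in HU, at 181 in G1 and 98.5 in HU, a difference of -0.87 (log2 ratio -1.09 to -0.68). None of these 3 genes reached 2-fold.

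HUG1, a small protein gene induced through the Mec1 pathway in wild-type cells, went from 7.67 to 37.7 RPM (2.16, log2 ratio 1.70 to 2.93), the largest rise of the list. SML1, the RNR inhibitor gene next to it, went from 21.3 to 58.0 RPM (1.41), and the genes share windows. After separation they rose from 2.41 to 26.6 and from 10.1 to 58.3 RPM. In the deposited values both genes were far below their wild-type level before any drug. SML1 stood at 21.3 RPM in mec1 G1 against 245 in wild type, and HUG1 at 7.67 against 76.6. The HUG1 values take in reads of SML1, so the strain difference of HUG1 is not settled by them. DIF1, listed as YLR437C, which brings the small subunit into the nucleus, went from 45.3 to 100.5 RPM, and its close neighbour YLR437C-A moved more. The kinase gene DUN1 differed by 0.36, the repressor gene RFX1 by -0.11 and WTM1, which retains the small subunit in the nucleus, by 0.30. TSA1, a peroxiredoxin gene kept in this list, stood at 1644 in G1 and 2990.2 in HU (0.86).

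HUG1 and RNR3 are shown with the Rfx1 X-box core, GGCAAC on either strand, in the same window as above. It occurred in 325 of 5851 windows (5.55%), in 4 of the 11 of this list and in 16 of the 273 of features that rose (5.86%). The HUG1 window lies at chrXIII:158460-158659 (plus strand) and the RNR3 window at chrIX:240809-241008 (minus strand), and capitals mark the match.
HUG1: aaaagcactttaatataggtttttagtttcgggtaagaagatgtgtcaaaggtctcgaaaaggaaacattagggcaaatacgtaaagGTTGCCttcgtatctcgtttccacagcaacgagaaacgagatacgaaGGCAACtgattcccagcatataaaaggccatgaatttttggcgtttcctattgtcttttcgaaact
RNR3: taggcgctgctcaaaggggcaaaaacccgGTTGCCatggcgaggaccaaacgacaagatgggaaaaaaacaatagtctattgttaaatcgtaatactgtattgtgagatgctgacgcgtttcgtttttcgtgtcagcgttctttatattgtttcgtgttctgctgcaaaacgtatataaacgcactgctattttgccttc
HUG1 holds 2 matches in opposite orientations, and RNR3 holds 1.

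**Figure D3:**
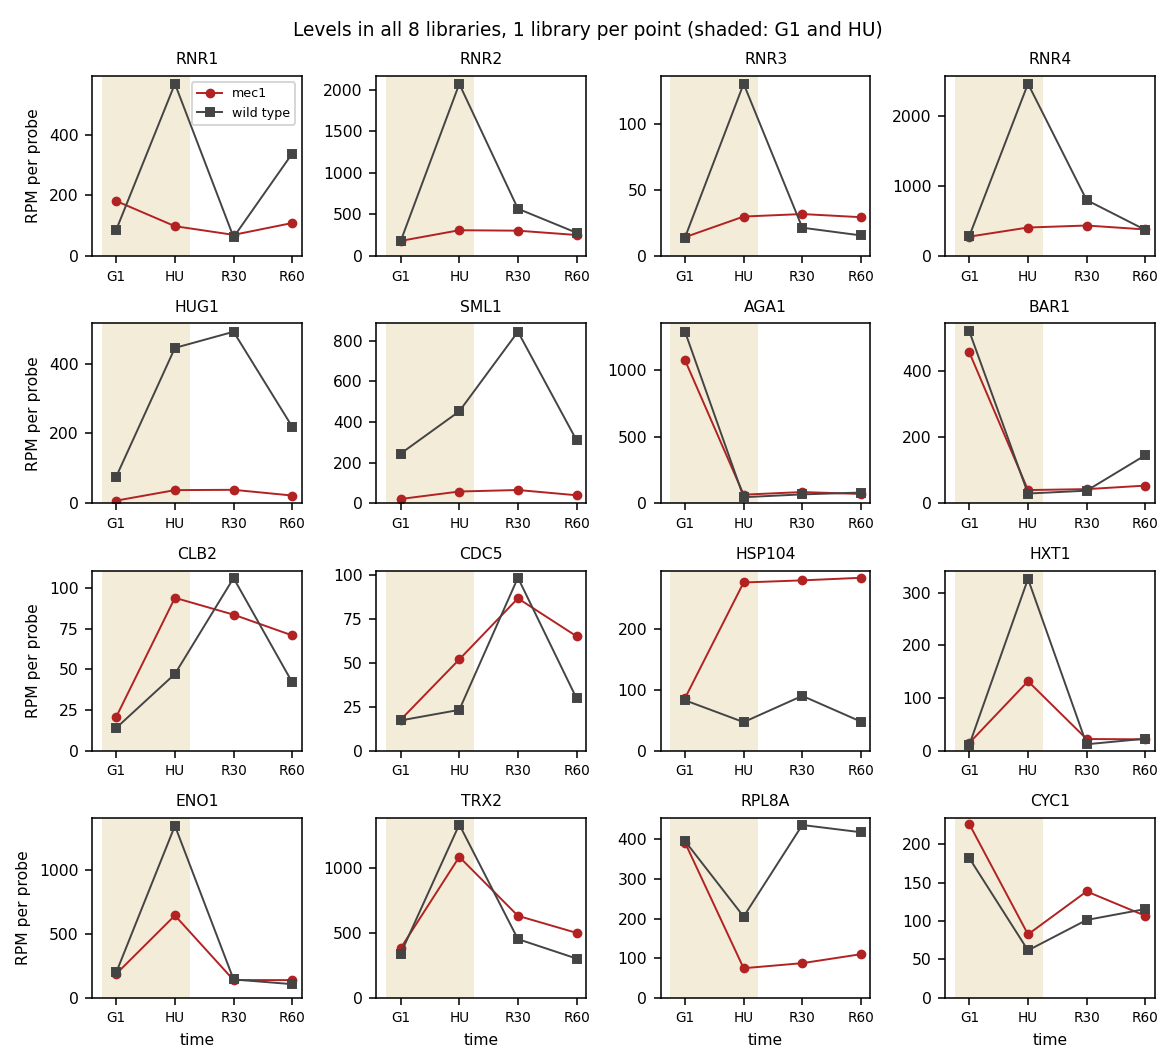
Level in RPM per window of 16 genes in G1, HU, R30 and R60, with 1 library per point, red for mec1 and grey for wild type, and the compared times shaded. In HU, RNR1 to RNR4 lie at 98.5, 310.4, 29.9 and 408 RPM in mec1 and at 568, 2069, 130.2 and 2467 RPM in wild type, while AGA1 and BAR1 are low in both.

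Genes of DNA replication and its surveillance stayed mostly within 2-fold, as did all but 7.04% of all features. Of 30 replication fork genes 2 fell and 0 rose, against 2.31% and 4.73% of all features, with a median of -0.10. POL30, the PCNA clamp gene, went from 206 to 91.7 RPM (-1.16), although its overlapping neighbour YBR089W moved more. POL30 was at 0 in both libraries after separation, so its fall cannot be told apart from that of YBR089W. SLD2, an initiation factor gene beside HAP4, went from 62.2 to 29.7 RPM and differed by -0.66 after separation. CDC21, the thymidylate synthase gene, stood at 29.5 in G1 and 17.0 in HU. All of the 17 origin licensing and 9 cohesion genes stayed within 2-fold. Among 20 checkpoint genes, SGS1, a helicase gene, was the only one past 2-fold, at 1.20, against 7.04% of all features. It differed by 0.21 after its neighbour SPG5 was separated. Among 29 repair genes 1 fell, against 2.31% of all features: PHR1, the photolyase gene, went from 53.2 to 18.8 RPM. RFA1, a subunit of the single-strand binding protein RPA, stood just inside the line at 81.2 in G1 and 162 in HU (0.99).

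Of the G1/S cyclin and regulator genes, 2 of 22 fell and none rose, against 2.31% and 4.73% of all features. In this list 9 stood above 0, and the median was -0.09. CLN2, a G1 cyclin gene, went from 76.1 to 21.6 RPM (-1.77) and SVS1, a wall protein gene of the same phase, went from 203 to 88.0 RPM. The other G1 cyclin genes, CLN1 and CLN3, stood at -0.50 and -0.74. The S-phase cyclin genes CLB5 and CLB6 stood higher without reaching the line, at 0.86 and 0.53, but each lies beside a G2/M cyclin gene that moved more, and their separated differences were 0.26 and -1.67. Of 10 histone genes only the variant gene HTZ1 rose, from 46.9 to 95.8 RPM (1.02), and the median was -0.26. HHT2 and HHF2, a divergent H3 and H4 pair, stood at -0.63 and -0.60. The core histone genes exist as near-identical copies, so the division of reads between copies is uncertain, and a library of polyadenylated RNA was read.

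Several G2/M genes rose. Of 25 members of the CLB2 cluster, 7 rose and 0 fell, with a median of 0.40. CLB2, the main mitotic cyclin gene, went from 20.8 to 94.0 RPM, a 4.53-fold rise (2.13, log2 ratio 1.81 to 2.56). CLB1, its paralog, went from 4.01 to 26.3 RPM (2.45, log2 ratio 1.91 to 3.60). CDC5, the Polo kinase gene, went from 17.5 to 51.9 RPM (1.51). The rises also took in genes that act at the bud neck and septum: CHS2, a chitin synthase, went from 25 to 80.4 RPM, HOF1 went from 11.6 to 31.9 RPM and BUD4 went from 17.3 to 36.6 RPM. HST3, a histone deacetylase gene, went from 17.9 to 55.8 RPM. Other members did not move by 2-fold: CDC20, the anaphase activator, differed by 0.33, SWI5 by 0.38, and SPO12 by -0.59.

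After separation the median of the 24 members of this list with a value was 1.20, and 14 members were past 2-fold upward, against 12.3% of all 5815 features with separated values. Of 19 spindle genes, none passed 2-fold and the median was 0.35. TUB1 and TUB2, the alpha and beta tubulin genes, differed by 0.76 and 0.69. The genes of mitotic exit and daughter separation were mixed, with 2 of 19 up and 2 down. SCW11 and CTS1, wall-degrading enzymes of daughter cells, went from 133 to 36.8 RPM and from 205 to 69.1 RPM. The feature YLR286W-A, which adjoins CTS1, moved more in the same direction. CDC15, a mitotic exit kinase gene, stood at 11.6 in G1 and 36.2 in HU (1.56) but changed sign to -3.90 after separation from the adjoining features, so its direction is not settled.

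Oxidative stress genes rose in part. Of 32 genes of the Yap1 list, 8 rose and 0 fell, with a median of 0.34. TRX2, a thioredoxin gene and a known target of the factor Yap1, went from 381 to 1085 RPM, 2.85-fold (1.51, log2 ratio 1.42 to 1.60). GPX2, a glutathione peroxidase gene, went from 168 to 460.4 RPM. CCP1, the mitochondrial cytochrome c peroxidase gene, went from 168 to 441 RPM, and PRX1, a mitochondrial peroxiredoxin gene, went from 29.0 to 88.3 RPM. The sulphiredoxin gene SRX1, the drug exporter genes FLR1 and ATR1 and the peroxiredoxin gene AHP1 made up the rest, at 1.09, 1.47, 1.01 and 1.01. The superoxide dismutase genes SOD1 and SOD2 stayed at 0.26 and 0.33, and the factor gene YAP1 itself at 0.31. The TRX2 window, at chrVII:913328-913527 (minus strand), is shown with the Yap1 motif TTACTAA, searched on either strand and found in 290 of 5851 windows (4.96%), in 9 of the 32 of this list and in 21 of the 273 of features that rose (7.69%).
TRX2: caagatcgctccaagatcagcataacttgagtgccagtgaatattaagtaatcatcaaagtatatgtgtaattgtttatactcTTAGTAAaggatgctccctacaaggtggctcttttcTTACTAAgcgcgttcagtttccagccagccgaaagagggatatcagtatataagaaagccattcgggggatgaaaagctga
It holds 2 matches, 1 in each orientation.

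A few chaperone genes rose. Of 30 heat shock genes 5 rose and 0 fell, with a median of 0.41. HSP104, the disaggregase gene, went from 86.2 to 277 RPM (1.67). SSA4, an inducible cytosolic Hsp70 gene, went from 89.7 to 259.6 RPM, with a neighbour, RTT105, that moved more. KAR2, the Hsp70 gene of the endoplasmic reticulum, went from 350.0 to 928 RPM. HSP78, the mitochondrial relative of HSP104, went from 23.9 to 54.7 RPM. The fifth, ECM10, lies beside SPF1 and was at 0 in HU after separation. The ribosome-bound Hsp70 genes SSB1 and SSB2 stood lower, at -0.56 and -0.31, and HSP26, the small heat shock protein gene, at 0.11. In the general stress list 5 of 30 rose and 0 fell, with a median of 0.48. HSP104 and SSA4 counted here too, and the others were UBI4, the polyubiquitin gene, GLK1, glucokinase, and HOR2, a glycerol phosphatase. HSP12 and CTT1, common reporters of this response, stood at 0.85 and 0.34 at levels of 23.8 and 19.5 RPM in HU.

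In sugar metabolism the changes fell on single members. Of 17 glycolytic genes 4 rose and 0 fell, with a median of 0.62 that came to 0.02 under quantile normalization. ENO1, an enolase gene, went from 188 to 647 RPM (1.77), and TDH1, a glyceraldehyde-3-phosphate dehydrogenase gene, went from 10.01 to 38.9 RPM (1.86). GLK1 went from 128 to 369 RPM and TPI1, triose phosphate isomerase, went from 1436 to 3024 RPM. The paralogs ENO2 and TDH3 stayed at 0.78 and 0.81, and reads of such near-identical genes may be split between copies. Among 17 hexose transport genes, HXT1, the low-affinity glucose transporter, went from 14.5 to 132 RPM, 9.10-fold (3.10, log2 ratio 2.78 to 3.61). HXT4, a transporter of higher affinity, fell from 1421 to 371 RPM (-1.93). HXT6 stood at 3.11 in G1 and 12.1 in HU, and it is nearly identical to HXT7, which stood at 76.9 in G1 and 49.9 in HU, so neither is certain. HXT3 and HXT2 differed by 0.89 and 0.17, and the glucose sensor genes SNF3 and RGT2 by 0.50 and 0.69.

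Fermentation genes were mixed, with 3 of 20 up and 1 down, against 4.73% and 2.31% of all features. ADH5, an alcohol dehydrogenase gene, went from 60.0 to 215 RPM, with an adjoining feature that moved more, and PDC5, a pyruvate decarboxylase gene, went from 9.25 to 29.5 RPM. ALD6, the cytosolic acetaldehyde dehydrogenase gene, fell from 793 to 283 RPM.

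A set of respiratory genes fell. Of 39 nuclear genes for the respiratory chain, the ATP synthase and their regulator, 9 fell and 0 rose, with a median of -0.68. HAP4, the activator subunit that drives respiratory genes, went from 94.6 to 23.2 RPM (-1.98, log2 ratio -2.43 to -1.64). CYC1, iso-1-cytochrome c, went from 226 to 82.6 RPM. Complex III supplied 5 of the falls, with QCR7 at -1.25, RIP1 at -1.23, QCR2 at -1.22, CYT1 at -1.17 and QCR6 at -1.05. NDE1, an external NADH dehydrogenase gene, and COX4, a cytochrome oxidase subunit gene, completed the 9 at -1.36 and -1.13. INH1, an inhibitor of the ATP synthase, stood the other way at 0.85, though its neighbour LYS20 moved more. In the citric acid cycle list 2 of 21 rose and 2 fell, against 4.73% and 2.31% of all features. ACO1, aconitase, fell from 149.5 to 45.6 RPM, and SDH2, a succinate dehydrogenase subunit, from 68.9 to 28.4 RPM. PYC1, pyruvate carboxylase, rose from 34.8 to 94.9 RPM. The other rise, CIT3, lies beside PDH1, which moved more.

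Ribosomal protein genes stood lower as a group, most by less than 2-fold. The median was -0.45 for both the 81 large subunit and the 56 small subunit genes, and 4 and 1 of them fell. RPL8A was apart from the rest, going from 392 to 74.8 RPM (-2.38, log2 ratio -2.61 to -2.18). The other falls were RPL9B at -1.35, RPL22B at -1.18, RPL7B at -1.06 and RPS7B at -1.04. Each of these has a paralog, and reads may be shared where the copies are near-identical. None of 79 ribosome biogenesis genes passed 2-fold, and their median was -0.27.

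Amino acid synthesis genes rose in 6 of 52 cases and fell in 1, with a median of 0.44. ILV6, a regulatory subunit of branched-chain synthesis, went from 227 to 759.8 RPM (1.74). ARG1, the argininosuccinate synthase gene, went from 127 to 379 RPM. LYS1, of lysine synthesis, went from 116 to 298 RPM. Purine and phosphate genes gave no call in either direction among 22 and 18 members, against 7.04% of all features. Of 31 sulphur and methionine genes 1 rose and 1 fell, against 4.73% and 2.31% of all features. They were MET13 at 1.02 and the permease gene MMP1 at -1.19. SCS3, a neighbour of MET13, moved more, at 1.53. Of 24 sterol genes 1 fell, against 2.31% of all features. It was MVD1, which lies beside AGA1 and kept a difference of -1.13 after separation. Of 31 genes of the iron regulon 3 rose, the wall mannoprotein genes FIT2 and FIT3 and the reductase gene FRE5, which lie side by side. FIT3 went from 64.3 to 259.6 RPM (2.00), and FRE5 differed by 0.08 once FIT3 was separated.

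Cell wall and surface genes held some of the largest rises. TIR1, a wall mannoprotein gene known from cold and anaerobic growth, had the largest rise of the named features and went from 3.64 to 40.5 RPM, 11.1-fold (3.16, log2 ratio 2.68 to 4.38). TIR3 and DAN1, of the same family, went from 27.3 to 109 RPM and from 4.13 to 15.2 RPM, and YIL012W, beside TIR3, moved more. TIP1, another member, went the other way, from 423 to 89.6 RPM (-2.23). In all, 5 of 36 wall genes rose and 3 fell. SUR7, a protein gene of the eisosome, went from 77.7 to 347 RPM, MRH1, a plasma membrane protein gene, from 45.8 to 213 RPM, and TPO3, a polyamine exporter gene, from 14.0 to 80.2 RPM. MMR1, which carries mitochondria into the bud, went from 17.9 to 102 RPM (2.44). FRM2, a nitroreductase-like gene, went from 7.01 to 55.6 RPM, RCE1, a protease of prenylated proteins, from 18.3 to 79.0 RPM, and TOS3, a kinase that activates Snf1, from 10.4 to 41.9 RPM. THI5, of thiamine synthesis, went from 8.59 to 74.8 RPM, but it is nearly identical to other THI genes and its separated difference was 1.89. PRY2, a secreted sterol-binding protein gene, fell from 1123 to 273 RPM (-2.04).

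Of 18 glycogen and trehalose genes 2 rose, GLC3 at 1.11 and GSY1 at 1.05, with a median of 0.17. After separation 8 stood 2-fold or more higher, against 12.3% of all features, and the median was 0.56. Of 35 proteasome genes 1 rose, against 4.73% of all features: RPT2, a base subunit, from 177 to 365 RPM. Among 4 alpha-cell genes SAG1 rose from 32.5 to 104 RPM, while STE3 stood at 4.25 in G1 and 9.12 in HU and MF(ALPHA)1 at 5.13 in G1 and 7.18 in HU. The summed level of the 4 was 56.2 RPM in G1 and 133 RPM in HU, most of it from SAG1 in both libraries. The sum for the 10 a-cell genes was 4353 and 1093 RPM. Levels of different genes are not on one scale, and the part of other cell types in these values was not tested. Among 16 meiosis genes, apart from HOP2, REC114 and SPS4 rose, to 42.7 and 20.7 RPM, and YOR314W, beside SPS4, moved more.

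Set beside the mec1 strain, wild type gave 288 features (4.44%) that rose and 199 (3.07%) that fell over the same 6489. No replicate exists in either strain, so differences between the responses were not tested. The strains share no library. Of the 307 features that rose in mec1, 118 also rose in wild type, which is 38.4% of the mec1 list and 41.0% of the wild-type list. Of the 150 that fell, 92 fell in both, 61.3% and 46.2% of the lists. The sign was shared more widely: 250 of the 307 were above 0 in wild type and 142 of the 150 below 0. Across features the differences of the strains correlated with a coefficient of 0.640, a description only.

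The mating genes fell in wild type too. AGA1 differed by -4.78 in wild type, SST2 by -3.10 and STE2 by -1.44, and the a-cell list had a median of -1.68 there with 6 of 10 down. The adhesion and fusion list had 18 of 22 down in wild type and a median of -2.16, against 15 and -1.46 in mec1. Of the signalling genes, 6 fell in wild type and 3 in mec1. The respiratory list had a wild-type median of -0.88. For the RNR genes the values were far apart. RNR1 differed by 2.70 in wild type, RNR2 by 3.53, RNR3 by 3.13 and RNR4 by 3.10. RNR1 went from 86.9 to 568 RPM in wild type, having started below its mec1 level of 181 RPM. The rise of HUG1 was 2.52 in wild type and 2.16 in mec1, from very different deposited starting levels, which take in reads of SML1. Of the 22 G1/S cyclin and regulator genes 3 rose in wild type, with a median of 0.05. Some single genes, chosen for their strain difference or after their values were seen, stood at or below 0 in mec1 and above it in wild type. TOS4, a forkhead-domain protein gene, stood at -0.73 against 2.09, and RFA2, an RPA subunit gene, at -0.13 against 1.60. CDC21 and POL30 stood at -0.76 and -1.16 against 1.09 and 0.83. After separation TOS4 and POL30 were at 0 in both mec1 libraries, so their values depend on how shared reads are assigned.

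The mec1 change exceeded the wild-type change by 2-fold or more for 316 features (4.87%) and fell short of it by 2-fold or more for 95 (1.46%). HSP104 was 1.67 in mec1 and -0.81 in wild type, where it stood at 82.8 and 46.8 RPM. SPF1, a P-type ATPase gene of the endoplasmic reticulum, went from 141 to 360.3 RPM in mec1 and from 129 to 57.3 RPM in wild type. SPF1 and the feature YJR029W were the 2 features past 2-fold in opposite directions. YJR029W was chosen after its values were seen, and whether its reads belong to it alone was not tested. The heat shock list had a median of 0.41 in mec1 and -0.04 in wild type. Other lists with rises in mec1 rose in wild type too. The general stress list had 5 of 30 up in each strain, with medians of 0.48 in mec1 and 0.12 in wild type. In the Yap1 list 8 of 32 rose in mec1 and 10 in wild type, and in the amino acid synthesis list 6 of 52 and 14. Some wild-type rises were larger: HXT1 was 4.75 and TDH1 4.25 there. CLB2 and CLB1 rose in both, by 2.13 and 2.45 in mec1 and by 1.69 and 3.97 in wild type, whereas CDC5 and CHS2 stood at 0.41 and 0.38 in wild type.

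**Figure D4:**
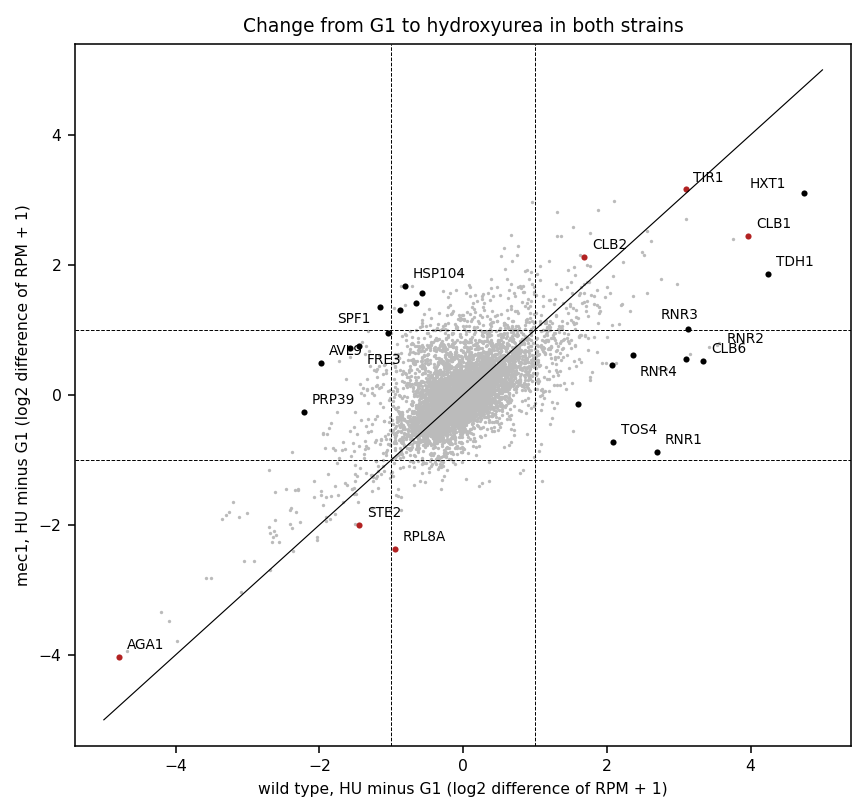
Difference between HU and G1 (log2 difference of RPM + 1) in mec1 against wild type for 6489 features, with dashed lines at 2-fold and a solid line of equal change. AGA1 lies low in both at -4.03 and -4.78, RNR1 to RNR4 lie far to the right of the line, and SPF1 and HSP104 lie at the upper left.

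After the drug was removed, several changes of the mec1 strain were still in place. HSP104 stood at 280.3 RPM in R30 and 285 in R60, close to its 277 in HU. CLB2 stood at 83.6 and 70.9, RNR3 at 31.7 and 29.4, and RPL8A at 87.5 and 110.2 RPM. RPL8A in wild type stood at 396, 205, 437 and 418 RPM over the 4 times. The mating genes stayed low, with AGA1 at 84.5 and 70.2 RPM. Others went back: HXT1 was at 21.9 and 21.3 RPM, ENO1 at 139 and 139, and GPX2 at 121 and 124. ACO1, which had fallen to 45.6 RPM in HU, did not return to its G1 level but stood far above it, at 1241 and 820.3 RPM.

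Because windows are shared, the calls were also read after separation. Of the 457 features past 2-fold (7.04%), 170 lie within reach of a neighbour that moved more in the same direction. After separation 342 of the 457 were past 2-fold in the same direction, 20 had the opposite sign and 50 were at 0 in both libraries. In the separated values, 713 of 5815 features (12.3%) stood 2-fold or more higher and 402 (6.91%) lower. In simulated data with 200 of 6547 features changed by 4-fold, the undivided values put 100 of the 200 past 2-fold. The simulation drew its reads from the same model of windows and transcripts that the separation uses, so it favoured separation from the start. They also put 81 unchanged features past it. Separation put 179 of the 200 and 765 unchanged features past 2-fold. In data made under that model the undivided counts missed changes, and how far this holds for the real libraries was not tested. The counts after separation are not read as changed genes. Single differences could be larger or smaller after it: AGA1 was -4.77 in place of -4.03, CHS2 3.69 in place of 1.65 and THI5 1.89 in place of 2.98.

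**Figure D5:**
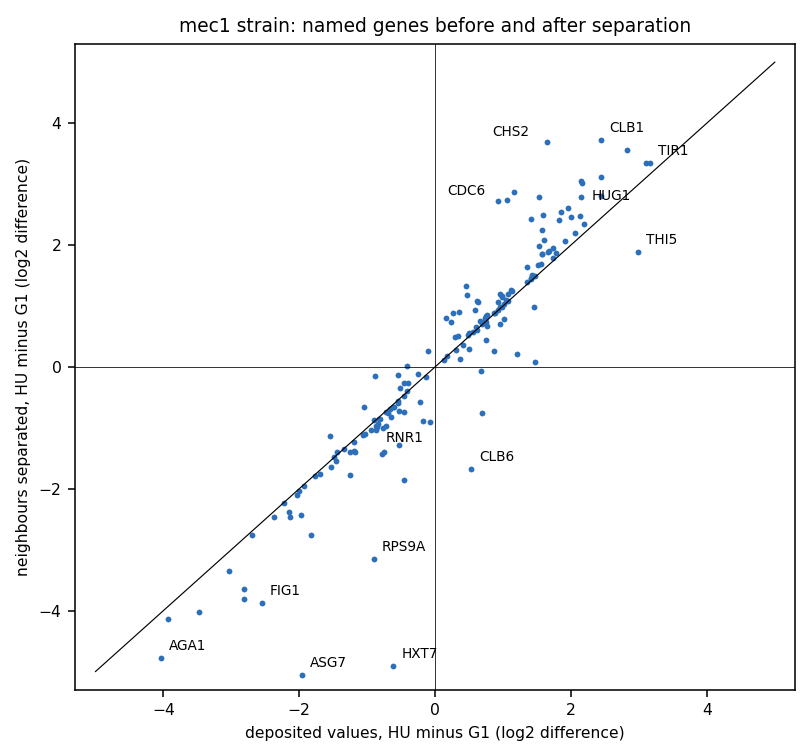
Difference between HU and G1 in the mec1 strain after separation of neighbours against the same difference in the deposited values (both log2), for the 173 of 193 named genes above 0 in both separated libraries. AGA1 lies at -4.03 and -4.77 and CLB1 at 2.45 and 3.73, and CLB6 changes sign, from 0.53 to -1.67.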

How the data were processed

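The authors deposited 1 table of all mRNA features with a mean and a standard deviation per library, and no replicate. The submitters' processing notes name BWA as the aligner and sacCer3 as the genome, without versions. Its header calls the values log2 RPKM, but the deposited values are neither logarithms nor divided by length: the product of a value and its windows comes to whole reads, to within 0.00599 of a read, and the values are taken as RPM averaged over windows. The number of windows, a column of the deposited table with no fixed unit, was that predicted from the body and 1000 bp flanks for 6326 of 6547 features (96.6%), and 221 had fewer. The deposited standard deviation, also in RPM, is a spread over windows, not replicates. It was not used in the separation, whose predictions of it correlated across features, on the log2 scale, at 0.963 to 0.968 over the libraries. A spread over windows can follow the level, to which the separation was fitted, so the correlation is a description and not a check of the separation.

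Differences are of log2(value + 1), and 2-fold is a difference of 1. Separation by non-negative least squares took reads as uniform over each transcript. Feature names matched RefSeq R64 for 5895 features, but 977 had identical coordinates, so table coordinates are not printed. Work used Python 3.11.15, numpy 2.4.6, pandas 2.3.3, scipy 1.17.1 and matplotlib 3.10.9.

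Named genes were the 15 largest rises and 15 largest falls with 20 RPM or more in the higher library and no neighbour that moved more, up to 4 members per list, all RNR, histone and hexose transport members, MEC1, and the 10 largest strain differences each way. Other list members are named to account for a count and were chosen after their values were seen. The members and the 36 lists were chosen with earlier results of these data known. The pseudocount, the filter, the scaling, the threshold and the separation were each varied.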

Additional observations from a re-analysis of the deposited data

Results flagged for a closer look

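For 13 named genes the difference between HU and G1 had opposite signs in the mec1 and the wild-type library pair. Each was 1.5-fold or more in both pairs and 2-fold or more in at least one. The named genes include those chosen for the largest strain differences. The mec1 change minus the wild-type change, on the log2 scale, is given for each, and none of these differences was tested. Lower in mec1 and higher in wild type were RNR1 at -3.57, TOS4 at -2.82, POL30 at -1.99 and CDC21 at -1.85. Higher in mec1 and lower in wild type were the ATPase gene SPF1 at 2.50, the disaggregase gene HSP104 at 2.48, the hexose transporter gene HXT6 at 2.39 and ECM17, a sulphite reductase subunit gene, at 2.30. The same pattern was seen for FRE3, an iron-siderophore reductase gene, at 2.19, TFC3, a subunit of the polymerase III factor TFIIIC, at 2.19, ATG19, a vacuolar targeting receptor gene, at 2.06, EAP1, a translation regulator gene, at 1.99 and the proteasome gene RPT2 at 1.65. HXT6 shares its sequence with HXT7, and POL30, TOS4 and TFC3 were at 0 in both mec1 libraries after separation, so the values of these genes depend on how shared reads are assigned.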

How the results depend on the processing

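No paired analysis was possible because each strain and time has 1 library, and for the same reason no library could be left out in turn. The 307 rises became 713 after separation of neighbours and 27 at 4-fold, and the 150 falls became 402 and 23. Under the other settings (pseudocounts 0.1 and 5, no filter, a mean of 20 RPM or more, the median difference set to 0, quantile normalization) rises ranged from 210 to 338 and falls from 117 to 171. The 210 features called in the same direction in both strains became 520 after separation, an alternative added after seeing the data. Of the 100 named genes past 2-fold, 91 remained so at a pseudocount of 5, 94 under quantile normalization and 90 of 96 with a value after separation, where CDC15 reversed to -3.90. Of the 36 list medians, 7 moved after separation: a-cell genes from -1.90 to -2.24, pheromone signalling from -0.33 to -0.91, mating adhesion and fusion from -1.46 to -2.16, G1/S regulators from -0.09 to -0.48, the CLB2 cluster from 0.40 to 1.20, the Yap1 list from 0.34 to 0.62 and glycogen and trehalose from 0.17 to 0.56. The glycolysis median went from 0.62 to 0.02 under quantile normalization. The cause was not tested. The median half-width of a counting interval was 0.284, which limits features of low level most; the spread between cultures is unknown.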

Other observations

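The calls were unevenly spread over starting levels. When the features were put in 5 groups of equal size by their mec1 G1 level, 13.7% of the lowest group rose and 1.08% fell, against 1.77% and 5.16% of the highest group. A low G1 level enters both the grouping and the difference, and counting error is largest there, so these shares are a description. Feature length made less of a difference: 5.32% of the shortest group rose and 3.62% of the longest.

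Features near chromosome ends were called more often. Of 410 features within 30 kb of the outermost feature of their chromosome, 12% rose and 4.63% fell in the mec1 strain, against 4.24% and 2.15% of the other 6079. In wild type the shares near the ends were 12.4% and 5.12%, against 3.90% and 2.93% elsewhere. Features near the ends include families with near-identical members, whose reads may be assigned to any copy, and the part of this in the shares was not tested.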
